A study of Mus musculus with 4 samples.

Results

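Krüppel-like factors (KLFs) are transcription factors with zinc fingers at the C-terminal end that bind GC-rich and CACCC sequences. They fall into a group of activators that recruit acetyltransferases (Klf2, Klf4, Klf5, Klf6 and Klf7 here), a group of repressors that bind CtBP (Klf3), a group that binds the corepressor Sin3A (Klf9, Klf10 and Klf13), and Klf15. In mouse preadipocyte lines several of them are known to act on fat cell formation, Klf2 and Klf3 against it and Klf4, Klf5, Klf9 and Klf15 for it. The genes described are 10 of the 17 KLF genes among the 28649 genes of the deposited table. They are Klf2, Klf3, Klf4, Klf5, Klf6, Klf7, Klf9, Klf10, Klf13 and Klf15, matched by symbol and chosen with earlier results of these data known. They lie on 10 different chromosomes.

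RNA sequencing of polyadenylated transcripts compared cultured fibro-adipogenic progenitors (FAPs), the mesenchymal progenitors of skeletal muscle, from miR-206 KO mice (2 libraries) and from wild-type (WT) C57Bl/6 mice (2 libraries). The FAPs were sorted as Sca1+ cells, expanded in a serum-rich medium with FGF and then held for 48 hours in DMEM with horse serum. The labels give no strain background for the KO mice, no age and no number of animals, so a strain difference cannot be told apart from the genotype, and every p-value reflects the spread of these libraries alone, which may be technical. Cells in both genotypes were grown and treated alike.

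Total estimated counts ran from 30550235 to 44561117 per library. The FAP markers Pdgfra and Col1a1 were high in every library, and FAP markers summed to 13003 and 12284 CPM (counts scaled to library size) in KO and to 10734 and 12011 CPM in WT, with Tcf21 too low to test. Most of that sum was Col1a1, and single markers differed in direction. Ly6a, the gene of the sort marker Sca1, had 657 and 732 CPM in KO and 882 and 1234 CPM in WT (-0.61 log2, edgeR adjusted p = 0.238), while Pdgfra (0.38 log2) and Dcn (0.49 log2) were above in both KO libraries with adjusted p = 0.13 and 0.159. Transcripts of other cells were present as well. Of 9 adipocyte markers, 8 were tested and all 8 had both KO libraries below both WT libraries, against 24.4% of all tested genes. Adipocyte markers summed to 110 and 66.1 CPM in KO and to 535 and 237 CPM in WT, and Lep had 0 counts in 3 libraries. Over all tested genes 0.186% were called lower in KO. Cidec, a lipid droplet gene, was the 1 marker called, at 0.23 and 0.23 CPM in KO against 4.71 and 2.44 CPM in WT (-3.93 log2, edgeR adjusted p = 0.0468). Its KO values rest on only 8 and 7 counts, against 168 and 109 in WT, so the size of the fold change is uncertain. The call was lost without any 1 library, KO replicate 1, KO replicate 2, WT replicate 1 or WT replicate 2, with log2 fold changes of -4.33 to -3.39. Of 9 muscle-lineage markers, 8 were tested and 5 of these (against the same 24.4% of all tested genes) lay below in both KO libraries. Their sums set KO replicate 2 apart, at 146 CPM against 1289 CPM in KO replicate 1 and 2414 and 1417 CPM in WT, and Pax7 had 0 counts in that library. Endothelial markers summed to 30.1 and 22.6 CPM in KO and 36.1 and 41.3 CPM in WT. Tek made up most of that sum. Of 5 tested endothelial markers 0 were called, and 3 had a negative fold change, Kdr (-1.72 log2), Tek (-0.72 log2) and Cdh5 (-0.30 log2). Emcn (1.00 log2, at most 27 counts in a library) and Pecam1 (0.49 log2) had a positive one. Blood-cell markers summed to 4.69 and 6.28 CPM in KO and 5.69 and 5.04 CPM in WT, and Adgre1 had 0 counts in every library. What part these cells had in the KLF values below was not tested. In such bulk samples fewer cells of a type and less RNA per cell cannot be told apart.

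miR-206 is a muscle microRNA that lowers transcripts by pairing its seed, bases 2 to 8, with sites in their 3' UTRs, and human KLF4 is among the genes reported as its targets. Its mature sequence (RefSeq, GRCm38.p6, chr1:20679055-20679076, plus strand) is shown with the seed in capitals, followed by each seed match found in the longest annotated 3' UTR of a member (GENCODE M21, GRCm38, the mm10 build), with the matched bases in capitals. They are shown because they are the seed matches found in the 10 genes for the microRNA deleted in the KO mice. The Klf13 matches (ACATTCCA) can pair with the whole seed. The matches in Klf4 and Klf7 (CATTCCA) leave the last base of the seed unpaired, and their final A lies opposite the base before the seed.
mmu-miR-206-3p: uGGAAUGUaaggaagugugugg
Klf4, chr4:55527823-55527850, minus strand: ggatcttctatCATTCCAataccaaatc
Klf7, chr1:64032270-64032297, minus strand: ttacctcctagCATTCCAaggggatccc
Klf13 first site, chr7:63889377-63889404, minus strand: ctcaggaattcACATTCCAgattcagga
Klf13 second site, chr7:63887475-63887502, minus strand: ttgtcctggacACATTCCAgagaatttc

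The Klf13 matches are both 8mers (ACATTCCA), at bases 2115 and 4017 of a 3' UTR of 5157 bases. The matches in Klf4 and Klf7 are 7mers (CATTCCA), at base 286 of 982 and at base 3427 of 6266. The other 7 members had no 8mer (ACATTCCA) or 7mer (ACATTCC or CATTCCA) in 3' UTRs of 737 to 3743 bases, read on the transcript strand only and counting a 7mer inside an 8mer once. In the deposited genes with an annotated 3' UTR, 3452 of 20115 (17.2%) held such a site, of any UTR length. A match is a description of sequence and does not show that a site is used.

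**Figure D1:**
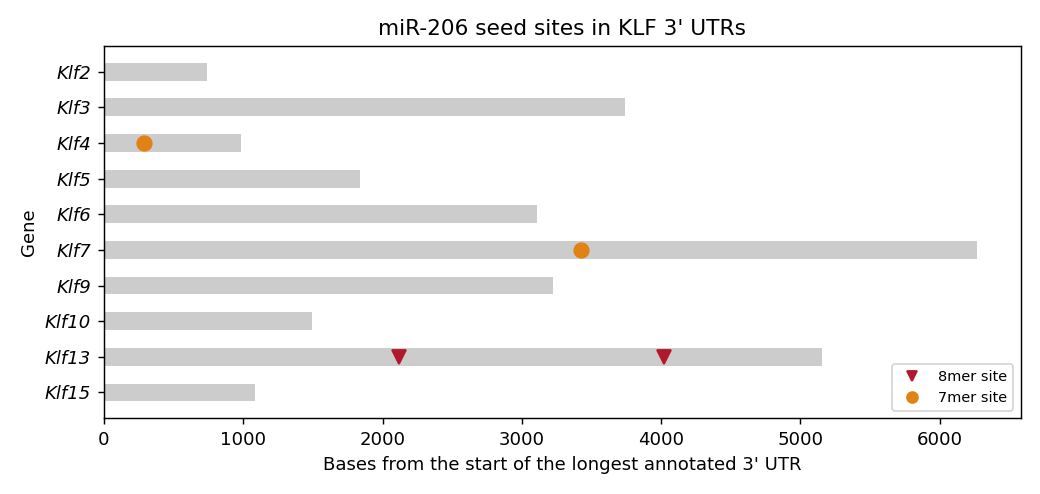
Longest annotated 3' UTR of each KLF gene (grey bar, bases from the UTR's start) with miR-206 seed matches: circles are 7mers and triangles 8mers. Klf13 holds 2 matches, Klf4 and Klf7 1 each, and the other 7 genes none.

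Klf3 had the highest KLF transcript level in all 4 libraries on the length-scaled TPM scale, with 73.3 and 82.3 TPM in KO and 89.4 and 87.5 TPM in WT. Klf4 followed in mean level, with 32.7 and 49.2 TPM in KO and 53.5 and 71.2 TPM in WT. Its values spanned those of Klf6, which kept to between 41.1 and 46.5 TPM over the 4 libraries, so Klf4 and Klf6 did not differ beyond their spread. Klf4 was second to Klf3 in 3 libraries and ranked 4 in KO replicate 1. Relative to Klf3, its TPM level was 0.446 and 0.597 in KO and 0.598 and 0.813 in WT, with KO replicate 2 and WT replicate 1 close together. Klf9 came next, at 34.4 to 38.1 TPM, with no overlap with Klf6 above it or Klf7 below it, though within the wide range of Klf4.

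A lower tier began with Klf7, at 14.6 to 17.0 TPM, followed by Klf13 and Klf10 with means of 14.9 and 14.5 TPM. These 3 genes overlapped and changed places between libraries. Klf5, Klf2 and Klf15 closed the order with mean levels of 10.5, 10.2 and 8.21 TPM. The ranges of neighbours in that last trio overlapped as well, and so did those of Klf10 and Klf5. Added up, the 10 genes made 251 and 283 TPM in KO and 305 and 319 TPM in WT.

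**Figure D2:**
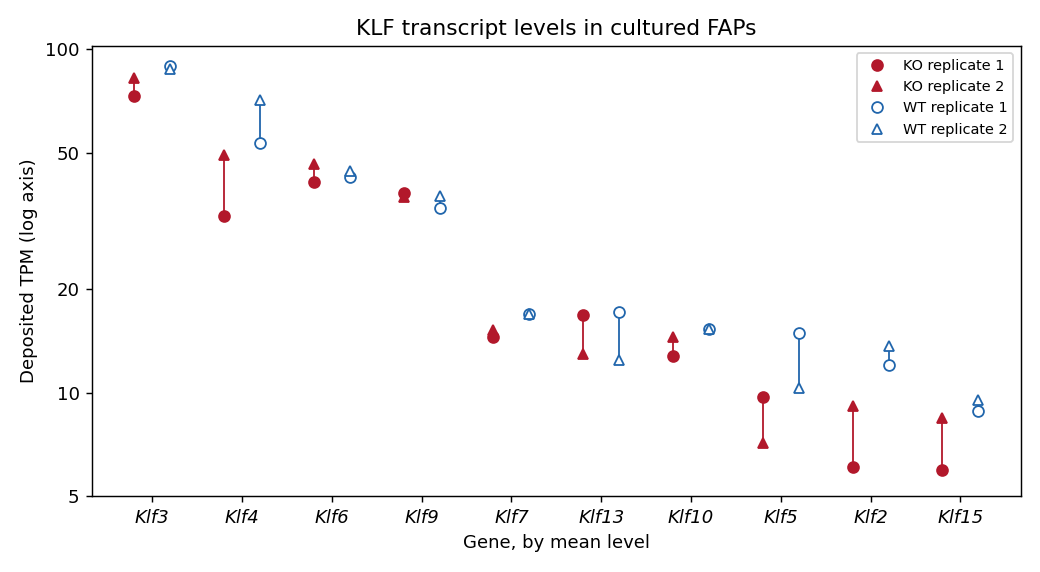
Deposited TPM of the 10 KLF genes (log axis) in each library, KO (filled red) left of WT (open blue), with a line joining the 2 libraries of a genotype. Klf3 is highest in all 4 libraries, and Klf2, Klf4, Klf5 and Klf15 have the widest spread between libraries.

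Of the 10 KLF genes, 0 passed the threshold of an adjusted p of 0.05 (edgeR quasi-likelihood test with Benjamini-Hochberg adjustment over 14507 genes). Over all tested genes 0.186% were called lower and 0.241% higher in KO. Klf2 and Klf3 had an unadjusted edgeR p under 0.05, that is 2 of 10 against 14.3% of all tested genes, and DESeq2 and limma-voom called 0 of the 10. All 10 passed the filter on low counts, and 8 had a fold change below 0. Their median was -0.18 log2, against -0.00 for all tested genes. Both KO libraries lay below both WT libraries for 7 of the 10, a position held by 24.4% of all tested genes, and above them for 0, a position held by 23.8%. The difference between the genotype means was larger than the gap between replicates in both genotypes for 4 of these 7 on the CPM scale, Klf2, Klf3, Klf4 and Klf10, a position held by 17.2% of all tested genes. On the TPM scale there were also 4, with Klf7 in place of Klf10, against 16.6% of all tested genes. The 10 genes were chosen with earlier results of these data known, so these counts are a description only. Of the 5 other KLF genes tested, 0 lay below and 2 above in both KO libraries.

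The activator group held the 3 most negative fold changes of the family. Klf2, which keeps endothelial cells and T cells quiescent, had 6.57 and 9.59 CPM in KO libraries against 12.9 and 14.5 CPM in WT libraries. Every KO value lay below every WT value, and KO replicate 1 was the lowest. The fitted log2 fold change was -0.76 (SE 0.21, adjusted p = 0.182 by edgeR), a level in KO of 0.590 times that in WT. This put Klf2 at percentile 6.29 of the fold changes of all tested genes. The gene (GRCm38, chromosome 8, plus strand, bases 72319033 to 72321656) has 1 transcript in GENCODE M21. Its counts were whole numbers, 227 and 293 in KO and 459 and 647 in WT.

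Klf4, one of the reprogramming factors and an early activator of Cebpb in preadipocyte lines, had 59.7 and 87.0 CPM in KO and 96.0 and 119 CPM in WT. The groups did not overlap, but the 2 KO libraries were 27.2 CPM apart and the 2 WT libraries 22.9 CPM apart, against a difference of means of -34.1 CPM. Its log2 fold change was -0.55 (SE 0.24, edgeR adjusted p = 0.424). The value was -0.31 without KO replicate 1, -0.84 without KO replicate 2, -0.70 without WT replicate 1 and -0.39 without WT replicate 2, so each KO replicate moved it by over 1.5 times while its sign stayed negative. Klf4 holds the 7mer seed match shown above (the gene spans bases 55527143 to 55532466 of chromosome 4, minus strand). Its estimated counts were up to 0.426 from a whole number.

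Klf5, which is induced early in fat cell formation and acts on Pparg, had 9.73 and 6.91 CPM in KO and 14.8 and 10.1 CPM in WT. Both KO values were lower than the WT values, with KO replicate 1 and WT replicate 2 close to each other. The log2 fold change was -0.58 (SE 0.25, edgeR adjusted p = 0.389). In contrast to Klf2, Klf4 and Klf15, it was replicate 1 that had the higher Klf5 level in each genotype. Without KO replicate 1 or 2 the log2 fold change was -0.85 or -0.35, and without WT replicate 1 or 2 it was -0.29 or -0.83.

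Klf6, known as a repressor of Dlk1 in preadipocytes, had 107 and 117 CPM in KO and 109 and 112 CPM in WT. The groups overlapped, with a log2 fold change of 0.02 (SE 0.07), whose sign turned negative with scaling by library size alone. Klf7, a factor of neuronal development, had 60.0 and 61.8 CPM in KO and 62.6 and 71.9 CPM in WT. Its log2 fold change was -0.14 (SE 0.09, edgeR adjusted p = 0.518), with WT replicate 2 apart from the other 3 libraries on the CPM scale. The fold change was -0.04 without WT replicate 2 and -0.24 without WT replicate 1. On the TPM scale the WT libraries were close together, and Klf7 had 14.6 and 15.3 TPM in KO and 17.0 and 16.9 TPM in WT. Like Klf4 it holds a 7mer seed match.

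Among the repressors, Klf3, the CtBP-binding member, had 98.0 and 105 CPM in KO and 119 and 114 CPM in WT. The genotypes did not overlap, and the difference of means, -15.0 CPM, was larger than the 6.996 CPM between the KO libraries and the 5.80 CPM between the WT libraries. Its log2 fold change of -0.20 had the smallest standard error of the 10 (SE 0.07, edgeR adjusted p = 0.294). Klf10, which TGF-beta induces, had 23.7 and 26.1 CPM in KO and 28.1 and 27.7 CPM in WT, a log2 fold change of -0.16 (SE 0.09, edgeR adjusted p = 0.499), or -0.09 without KO replicate 1.

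The other Sin3A-binding members did not separate by genotype. Klf9, a glucocorticoid- and thyroid hormone-induced gene, had 75.6 and 71.5 CPM in KO and 67.6 and 72.7 CPM in WT, a log2 fold change of 0.07 (SE 0.07). With each library left out in turn it lay between 0.02 (without WT replicate 1) and 0.12 (without WT replicate 2). Klf13, an activator of the chemokine gene Ccl5 in T cells, had 40.3 and 35.9 CPM in KO and 42.7 and 36.9 CPM in WT, a log2 fold change of -0.06 (SE 0.10). This is the gene with 2 8mer matches in its 3' UTR. On the deposited TPM its fold change had the other sign, at 0.01 log2. Klf15, a glucocorticoid target that acts on amino acid and glucose metabolism in muscle, had 8.48 and 11.6 CPM in KO and 12.4 and 13.2 CPM in WT. The genotypes did not overlap, but the gap between the KO libraries, 3.14 CPM, was larger than the difference of means, and the log2 fold change of -0.35 (SE 0.18, edgeR adjusted p = 0.452) was -0.14 without KO replicate 1 and -0.59 without KO replicate 2.

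**Figure D3:**
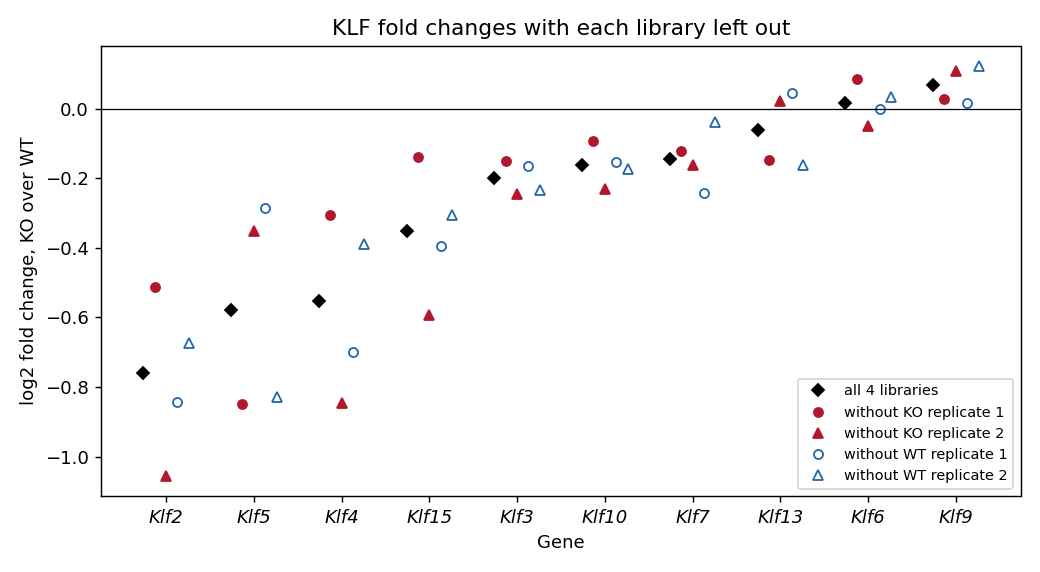
Fitted log2 fold changes of the 10 KLF genes, KO over WT, with all 4 libraries (black diamonds) and with each library left out in turn. Klf2, Klf3, Klf4, Klf5, Klf7, Klf10 and Klf15 stay below 0 in all 5 fits, and Klf6 and Klf13 cross 0.

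The authors' deposited table of log2 differences of mean TPM gave -0.76 for Klf2, -0.61 for Klf4, -0.59 for Klf5, -0.35 for Klf15 and -0.18 for both Klf3 and Klf7. In the same authors' deposited table Klf10 stood at -0.17, Klf13 at 0.01, Klf6 at 0.01 and Klf9 at 0.06. The 2 scales differ in sign for Klf13 only, the member whose counts per TPM varied most between libraries. That ratio follows the mean length of the transcripts counted, and for Klf13, relative to its mean, it was 0.892 and 1.06 in KO and 0.937 and 1.13 in WT, a span of 1.26 times against a median span of 1.05 over 11901 genes with at least 50 counts in each library, whose 90th percentile was 1.3. For Klf7 the span was 1.17, with WT replicate 1 lowest at 0.913, and for Klf4 it was 1.07. The other 7 members spanned at most 1.03. For Klf13 the ratio was thus further apart between the replicates of each genotype than between the genotypes, and its counts were up to 0.266 from a whole number.

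Of the remaining 7 KLF genes 5 were tested, with 0 called (edgeR; 0 with an unadjusted p under 0.05). Klf12, a CtBP-binding repressor related to Klf3, had 2.55 and 3.797 CPM in KO and 1.54 and 2.39 CPM in WT, a log2 fold change of 0.68 (SE 0.37, edgeR adjusted p = 0.471). Klf16, in the Sin3A-binding group, had 22.4 and 22.5 CPM in KO and 17.5 and 21.3 CPM in WT, at 0.21 log2 (SE 0.13). Both had their KO libraries above their WT libraries, a position held by 23.8% of all tested genes, whereas Klf1, Klf8 and Klf11 overlapped. Klf14 and Klf17 had at most 2 and 4 counts in any library and were not tested. Of the related SP genes 5 of 9 were tested and 0 called, with a median of 0.11 log2. The most abundant, Sp1 and Sp3, had log2 fold changes of 0.01 (SE 0.07) and 0.11 (SE 0.07).

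**Figure D4:**
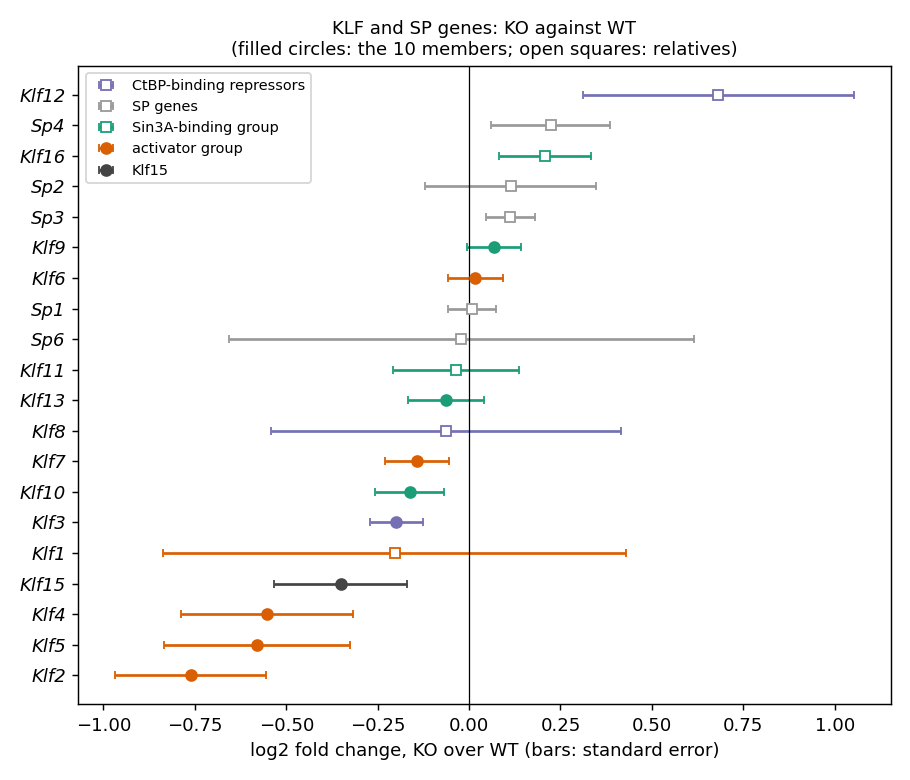
Fitted log2 fold changes, KO over WT, with standard errors as bars, for the 10 KLF genes (filled circles) and the tested KLF and SP relatives (open squares), coloured by cofactor group. Klf2, Klf5 and Klf4 lie lowest, and Klf12 highest at 0.68.

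Genes that work with, drive or follow KLF factors gave few calls. Of 13 cofactor genes 0 were called (edgeR; 0 with an unadjusted p under 0.05), with a median of -0.03 log2. Ctbp1, the corepressor that Klf3 binds, had 113 ± 0.671 CPM in KO and 113 ± 1.04 CPM in WT (SD, n = 2 each), and Hdac1 had 114 ± 3.48 CPM in KO and 111 ± 1.21 CPM in WT. Of 16 genes reported as KLF targets 0 were called, while 8 had an unadjusted edgeR p under 0.05, a level reached by 14.3% of all tested genes. The 2 most abundant were Ctgf at 0.78 log2 (SE 0.14, edgeR adjusted p = 0.11) and Cdkn1a, which Klf4 is known to activate, at -0.69 log2 (SE 0.11, edgeR adjusted p = 0.0745). The target list had a median of -0.05 log2, with 4 members above and 6 below in both KO libraries. Over all tested genes 23.8% lay above and 24.4% below. Cebpb, named above beside Klf4, was at 0.14 log2 (SE 0.11, edgeR adjusted p = 0.632) with overlapping genotypes. Cebpd was at 0.45 log2 (SE 0.08, edgeR adjusted p = 0.0837) and above in both KO libraries. Both were named after their values were seen. Pparg, the regulator of fat cell formation and named here after its values were seen, had 8.60 and 7.86 CPM in KO and 28.1 and 18.2 CPM in WT (-1.49 log2, SE 0.23, edgeR adjusted p = 0.0745). The adipocyte markers were lower in the same KO libraries, and their part in this difference was not tested.

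The glucocorticoid-response list was examined since Klf9 and Klf15 are targets of that hormone's receptor. Of its 8 genes 1 was called, Sgk1, a kinase gene. It was higher in KO, with 164 and 172 CPM against 113 and 102 CPM in WT, a log2 fold change of 0.64 (SE 0.08, edgeR adjusted p = 0.0424). The list as a whole had a median of -0.01 log2, with 3 genes above and 2 below in both KO libraries. Over all tested genes 23.8% lay above and 24.4% below, and 0.241% were called higher in KO. An unadjusted edgeR p under 0.05 was found for 4 of the 8, against 14.3% of all tested genes. Named after their values were seen, these were Sgk1, Fkbp5 and Errfi1 with positive fold changes and Dusp1 with a negative one. The Sgk1 call was lost when any 1 library was left out, KO replicate 1, KO replicate 2, WT replicate 1 or WT replicate 2, at adjusted p = 0.0542 to 0.169 with log2 fold changes of 0.57 to 0.72. Immediate early genes, another quickly induced class, had 0 of 10 called and a median of 0.12 log2. The 3 with an unadjusted edgeR p under 0.05, named after their values were seen, were Jun (0.29 log2), Junb (0.32 log2) and Ier2 (-0.64 log2). Junb and Egr1, the most abundant, were at 0.32 (SE 0.12) and -0.21 (SE 0.17).

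ERK5 and the MEF2 factors it activates are known to induce Klf2 in endothelial cells through a MEF2 site near the start of the gene. The 250 bases before the Klf2 start (RefSeq, GRCm38.p6, chr8:72318812-72319061, plus strand) are shown because they hold the single MEF2 match found in the members' promoters, in capitals. RefSeq starts the gene further downstream than GENCODE M21, so the last 29 of these bases lie inside the GENCODE gene.
Klf2 promoter: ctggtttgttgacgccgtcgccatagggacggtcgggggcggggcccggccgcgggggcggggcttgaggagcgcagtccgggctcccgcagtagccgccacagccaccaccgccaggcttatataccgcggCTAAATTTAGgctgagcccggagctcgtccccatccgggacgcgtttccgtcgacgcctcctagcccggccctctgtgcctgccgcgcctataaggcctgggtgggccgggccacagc

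The motif searched was CTANNNNTAG, its own reverse complement, and 3.2% of 32851 promoters of the same length held it. In Klf2 it ends 108 bases before the RefSeq start and 79 before the GENCODE start. Promoters were matched for 8 of the 10 members (Klf5 and Klf10 had no entry). The CACCC box, searched on both strands, was in 6 of these 8 promoters, against 52.0% of all promoters, with 5 matches in Klf3, 3 in Klf7, 1 each in Klf2, Klf9, Klf13 and Klf15 and none in Klf4 and Klf6. The GC box CCGCCC, searched likewise, was in 7 of the 8, against 32.7% of all promoters. The GC content of these 8 promoters was 59.2 to 78.4%, and how often promoters of like GC content hold the box was not tested. Of the 6 genes of the ERK5 and MEF2 list 0 were called (edgeR; 0 with an unadjusted p under 0.05), with a median of -0.17 log2. Mef2d had 106 and 88.3 CPM in KO and 124 and 103 CPM in WT, and Mef2a had 79.9 and 54.6 CPM in KO and 109 and 83.5 CPM in WT, each lowest in KO replicate 2, the library in which muscle-lineage markers were also lowest. Among the 7 KLF genes with separated genotypes, KO replicate 1 held the lowest level of 6, and KO replicate 2 that of Klf5.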

How the data were processed

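RNA sequencing of 2 KO and 2 WT libraries was analysed from the authors' deposited tables. Per the submitters' processing notes, FastQC, kallisto and the build mm10 were used. Those notes name no version, strand setting or way of summing transcripts into genes. The kallisto method divides reads among similar transcripts, so related genes can exchange reads. The authors deposited estimated counts per gene, not normalized, and TPM, scaled for depth and transcript length. The authors' deposited log2 differences of mean TPM wrote means under 1 TPM, and their log2 values, as 0.

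Counts were rounded and tested across all genes with edgeR 4.0.16 in R 4.3.3 (TMM scaling, filterByExpr, robust quasi-likelihood F-test, Benjamini-Hochberg adjustment over 14507 genes, threshold 0.05, two-sided). The standard error is the fold change's size over the square root of F. CPM are counts scaled to a common TMM-adjusted library size. The fit was checked on simulated counts. Replicates differed by more than counting noise (chi-square per gene of 38.3 in KO and 28.7 in WT, where 1 is noise alone).

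Named genes were the 10 members, tested KLF and SP relatives, called genes of the other lists and otherwise each list's 2 most abundant genes. Members and lists were chosen with earlier results of these data known. Alternatives were other scalings, filters, tools (DESeq2 1.42.0, limma 3.58.1), a replicate block, log2 TPM and leaving out each library. Mir206 itself was not analysed here.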

Additional observations from a re-analysis of the deposited data

How the results depend on the processing

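Of 130 recomputed fold changes of the 10 KLF genes (13 alternatives each), 122 kept their direction and their side of the threshold. Klf4 passed the threshold with the replicate number as a block (-0.57 log2, adjusted p = 0.0449 by edgeR), where 1 KLF gene was called and 265 genes in all. Its adjusted p ran from 0.0449 to 0.764 over the alternatives and that of Klf2 from 0.0563 to 0.459. The labels do not say that equal replicate numbers mark shared animals or days, and the deviations of same-numbered libraries correlated at 0.19 over 14507 genes, so this paired fit is a hint only. The 7 reversals were in Klf6 (-0.021 with library size alone, and from -0.050 to 0.084 with each library left out) and Klf13 (0.012 and 0.013 on log2 TPM with pseudocounts of 1 and 0.1, and from -0.16 to 0.044 with each library left out). The cause was not tested.

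The 62 genes called in all became 133 with library size alone, 491 with no low-count filter, 11 without robust estimation, 660 with DESeq2, 14 with limma-voom, 6 and 4 on log2 TPM with pseudocounts of 1 and 0.1, and from 7 to 77 with a library left out. Fits without a library leave 1 library in a genotype, which is assumed to vary like the other genotype's. The median of the 10 genes stayed between -0.24 and -0.14 log2, and 7 genes stayed separated under each scaling and on TPM. Klf3 ranked first in 4 libraries by TPM and in 1 by CPM, which is not scaled for length. Depth limits Klf1, Klf8, Klf14 and Klf17 most.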
